A study of Drosophila melanogaster with 6 samples.

Results

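The mitochondrial ribosomal protein genes are the nuclear genes whose FlyBase symbol begins with mRpL or mRpS followed by a digit. They were found by this name rule among the 11922 FlyBase gene identifiers listed for each sample, taking the first row of an identifier, and 70 genes met it. Of these, 46 carry the mRpL name of the large ribosomal subunit and 24 the mRpS name of the small subunit. A further 3 symbols of the name table that meet the rule (mRpL47, mRpS34 and mRpS5) were not analysed here. All 70 genes are protein-coding in the Ensembl BDGP6.54 annotation, and each occupied a single row.

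The values come from an RNAseq experiment on heads and associated tissues of wild-type flies, virgin females 5 d old. The authors name Oregon-R as the wild type of their locomotion assays and call the RNAseq flies wild-type. Flies fed with normal diet (ND) were compared with flies fed with high-fat diet (HFD), which is ND supplemented with coconut oil, and feeding lasted 5 d. Each diet has 3 samples, every one a pool of flies, and the flies of both diets were described as wild-type. The comparison asks whether the genes that build the mitochondrial ribosome had another mRNA level in the heads of HFD-fed flies than in those of ND-fed flies.

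Mitochondria keep a small genome of their own, and the messenger RNAs it encodes are translated inside the organelle by a dedicated ribosome. In animals the RNA of this ribosome is made from the mitochondrial genome, while its proteins are encoded in the nucleus, translated in the cytosol and imported. The products of mitochondrial translation are core subunits of the respiratory chain and of ATP synthase, and heads are rich in neurons and photoreceptors, cells with a high demand for respiration.

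The deposited value is FPKM, which counts fragments per length of transcript and per number of mapped fragments, so that levels of different genes can be set side by side per length. The depth of each sample, estimated from the steps between low FPKM values, was 9.56, 8.19 and 10.29 M fragments in ND replicates 1 to 3 and 8.89, 5.33 and 11.82 M fragments in HFD replicates 1 to 3. Genes of neurons and of the eye were present at a summed level of 21938 to 31189 FPKM per sample, and a list of male-specific genes summed to 1.42 to 3.09 FPKM. A pair of samples stood apart from the rest. The correlations of log2 values between ND replicate 3 and the other samples were 0.842 to 0.920, and its summed level of 28 midgut digestion genes was 74.5 FPKM against 7857 to 26937 FPKM elsewhere. Heat shock genes summed to 910 FPKM in this sample and to 342 to 515 FPKM in the others. HFD replicate 2, the shallowest sample, had correlations of 0.920 to 0.954. In bulk samples of this kind, fewer cells of a type and less RNA per cell cannot be told apart.

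The genes of the mitochondrial ribosome were expressed at moderate and rather similar levels. The median of their mean levels over the 6 samples was 17.3 FPKM, with quartiles at 14.7 and 21.3 FPKM, beside a median of 14.4 FPKM over all 8362 genes tested. Between 10 and 30 FPKM lay 62 of the 70 genes, 5 were above 30 FPKM and 3 were below 10 FPKM. The highest mean was 6.14 times the lowest. The large-subunit genes had a median of 17.3 FPKM and the small-subunit genes one of 17.0 FPKM. The proteins of the cytosolic ribosome, which translates the messages of the nuclear genome, were encoded by mRNAs at a median of 1007 FPKM over the 84 genes listed in the files. Together the 70 genes made up 0.245% to 0.303% of the summed FPKM of a sample, and the cytosolic ribosomal protein genes made up 15.0% to 16.5%.

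**Figure D1:**
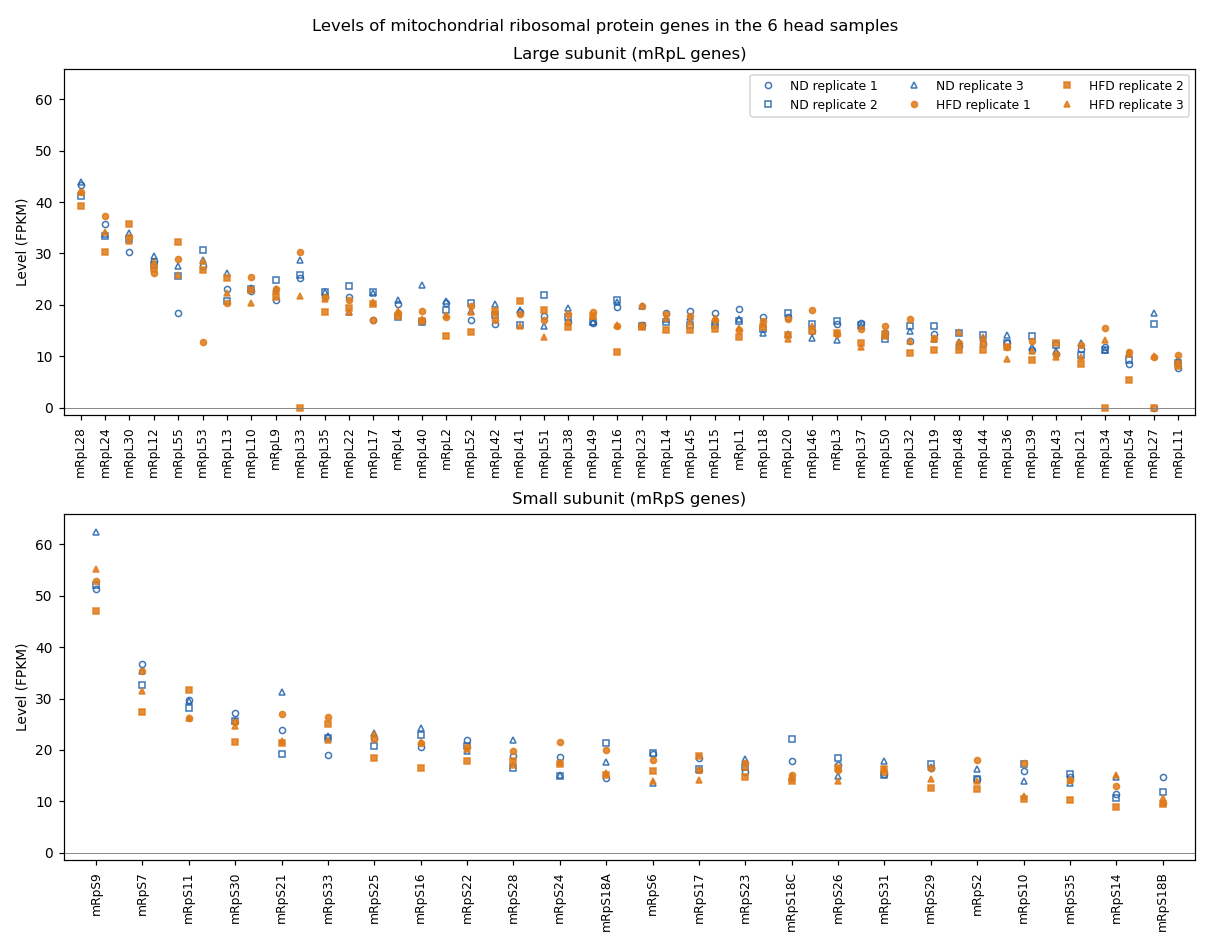
Level in FPKM (vertical axis) of each mitochondrial ribosomal protein gene (horizontal axis, ordered by mean) in the 3 ND samples (blue, open) and the 3 HFD samples (orange, filled), with the large subunit above and the small subunit below. Most genes lie between 10 and 30 FPKM, mRpS9 stands highest in its panel, and mRpL33, mRpL34 and mRpL27 have samples listed at 0.

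The highest level belonged to mRpS9, a protein of the head of the small subunit with a bacterial counterpart, encoded on chromosome 3R at 7889277 to 7902667 (BDGP6.54, minus strand). Its level was 51.3, 52.0 and 62.5 FPKM in the ND samples and 52.9, 47.0 and 55.2 FPKM in the HFD samples. The diets overlapped, with the highest value in ND replicate 3 and the lowest in HFD replicate 2, and the log2 difference, taken as HFD minus ND, was -0.09 ± 0.11 (SE). Next came mRpL28, a large-subunit protein also shared with bacteria, at 43.4, 41.3 and 43.9 FPKM on ND and 42.1, 39.2 and 42.0 FPKM on HFD. The ranges of mRpS9 and mRpL28 over the 6 samples did not overlap, and neither did those of mRpL28 and the gene after it. Below these, ranges of neighbours overlapped in every instance, which makes 67 of the 69 neighbouring pairs in the order. The genes in the third, the fourth and the fifth place were mRpL24, mRpS7 and mRpL30, with mean levels of 34.1, 33.2 and 33.1 FPKM. mRpL24 belongs to the rim of the exit tunnel of the bacterial ribosome, and mRpS7 to the head of the small subunit. The order of levels was much alike in the diets, with a Spearman's rho of 0.924 between the ND and HFD means across the 70 genes, which are not independent replicates.

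At the lower end, mRpL11, whose bacterial counterpart forms the base of a stalk where translation factors bind, had 7.71, 8.65 and 9.22 FPKM on ND and 10.2, 8.41 and 8.10 FPKM on HFD. The values of the diets were interleaved. mRpL54, a protein of the mitochondrial large subunit without a bacterial counterpart, had 8.55, 9.36 and 10.7 FPKM on ND and 10.9, 5.42 and 10.3 FPKM on HFD, and only HFD replicate 2 lay below the ND range. mRpL21 was also among the 5 lowest, with an ND mean of 11.4 ± 1.24 FPKM and an HFD mean of 10.2 ± 1.82 FPKM (SD, n = 3 each). By the estimated depths, these low levels rest on few fragments, and 21 of the 70 genes had under 50 estimated fragments in at least 1 sample where they were above 0.

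Values of exactly 0 occurred in 3 genes, all of the large subunit. mRpL33, a small protein shared with bacteria, was listed at 25.1, 25.8 and 28.7 FPKM on ND and at 30.3, 0 and 21.7 FPKM on HFD. mRpL34, another small protein with a bacterial counterpart, was listed at 11.9, 11.3 and 11.3 FPKM on ND and at 15.4, 0 and 13.2 FPKM on HFD. In both genes the only 0 was in HFD replicate 2. mRpL27, which in bacteria reaches towards the catalytic centre of the ribosome, was listed at 0, 16.2 and 18.5 FPKM on ND and at 9.91, 0 and 10.03 FPKM on HFD. At the level of the other samples and the estimated depth, 49.0 fragments of mRpL33, 22.0 of mRpL34 and 37.2 of mRpL27 would stand in HFD replicate 2, and 66.7 fragments of mRpL27 in ND replicate 1.

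mRpL34 and mRpL33 have the shortest longest transcripts of the 70 genes, with 327 and 349 nt. Of 6356 other genes with at least 5 FPKM in the samples where they were above 0, between 16 and 139 were listed at 0 in a given sample, with 46 in HFD replicate 2 and 139 in ND replicate 3. Among those with transcripts up to 400 nt, 2 of 58 (3.45%) were listed at 0 in HFD replicate 2 and 8 of 58 (13.8%) in ND replicate 3, a sample in which 0 of the 70 genes were listed at 0. Over 1200 nt, the shares were 0.344% and 1.21%. A 0 in such a file can be a failed estimate, so the log2 differences of these 3 genes that take in a 0 are given only to show what the fit returned and are no measure of a fold change. With the values listed at 0 treated as missing, an alternative chosen after seeing the data, the log2 differences (HFD minus ND) were -0.04 for mRpL33, 0.29 for mRpL34 and -0.74 for mRpL27, where they had been -1.62, -1.02 and -0.49 with the 0 values in the fit. The adjusted p from limma for mRpL27 was then 0.393.

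**Figure D2:**
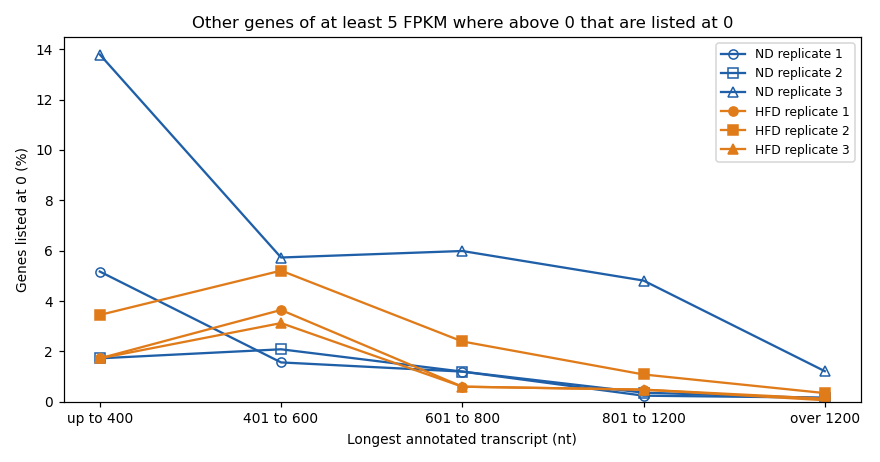
Percent of genes listed at 0 in a sample (vertical axis), among genes other than the 70 with at least 5 FPKM in the samples where they were above 0, by the length of the longest annotated transcript (horizontal axis). Lines are the 3 ND samples (blue) and the 3 HFD samples (orange), and ND replicate 3 is highest in every length class, with 13.8% up to 400 nt, where HFD replicate 2 has 3.45%.

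No gene of the mitochondrial ribosome passed the test between the diets. With limma on log2(FPKM + 1) over 8362 genes, 0 of the 70 genes had an adjusted p under 0.05, where 0.0478% of all genes tested did. At an unadjusted p under 0.05, 0 genes were higher on HFD, beside 3.11% of all genes tested, and 3 genes were lower on HFD, beside 3.6% of all genes tested. These 3 are 4.29% of the 70 genes, near the background share. The rule of p under 0.05 with a ratio over 2 or under 0.5 was met by 0 genes, beside 1.11% of all genes tested. The p-values measure the spread between these 3 samples per diet, whose labels number them without saying how the pools were kept apart.

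**Figure D3:**
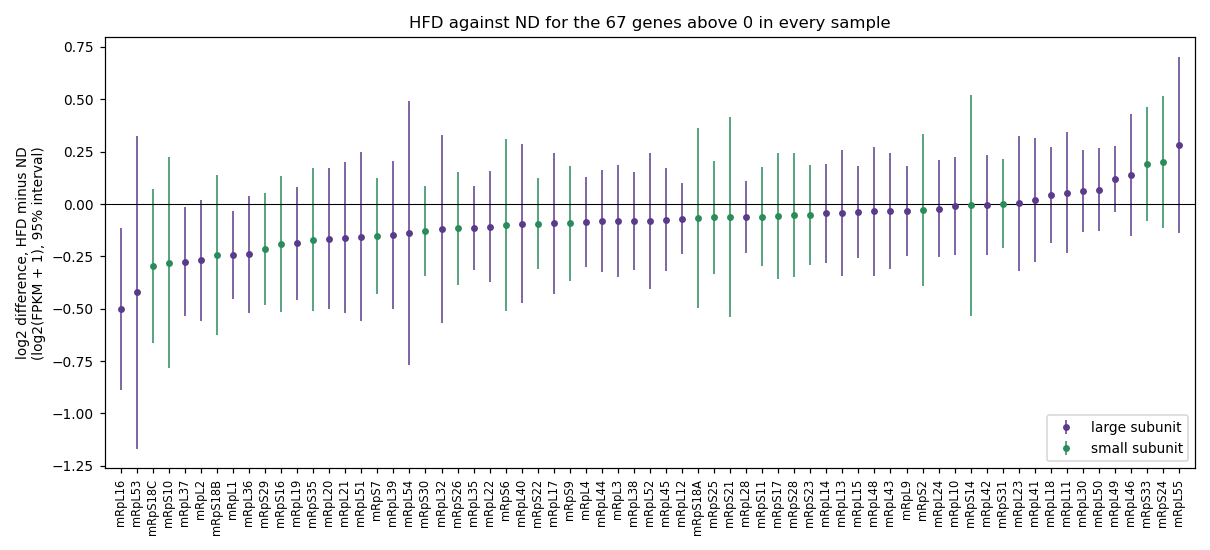
The log2 difference of each gene (HFD minus ND on log2(FPKM + 1), points) with its 95% interval from limma (bars), ordered by difference and coloured by subunit, for the 67 genes above 0 in every sample. Of these, 55 lie below 0 and 12 above, and the intervals of only mRpL16, mRpL37 and mRpL1 leave out 0.

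The data bounded the differences rather closely. For 66 of the 70 genes, the 95% interval excluded a doubling and a halving, and for 46 genes it lay within 0.5 of 0 on the log2 scale. The median distance from the estimate to either bound was 0.28. The exceptions to the former were mRpL33, mRpL34 and mRpL27, with their values of 0, and mRpL53. mRpL53, named here after its values were seen, had 27.6, 30.7 and 28.7 FPKM on ND and 12.7, 26.8 and 28.6 FPKM on HFD, with HFD replicate 1 alone far below the rest. An absolute log2 difference under 0.3 was found for 65 of the 70 genes.

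Most differences had the same sign. The log2 difference was below 0 for 58 of the 70 genes, or 82.9%, and above 0 for 12, where 57.2% of all genes tested lay below 0 and 42.8% above. The median was -0.08 over the 70 genes, with -0.08 for the large and -0.08 for the small subunit, and -0.03 over all genes tested. Of the cytosolic ribosomal protein genes, 69 of 76 lay below 0, with a median of -0.07. Without HFD replicate 2, 45 of the 70 genes lay below 0, or 64.3%, with a median of -0.03, beside 58.1% of all genes tested and their median of -0.03. Without ND replicate 3 and HFD replicate 2 together, 37 of the 70 genes lay below 0, or 52.9%, with a median of -0.01, beside 50.8% of all genes tested. With any other single sample left out, 71.4% to 82.9% of the 70 genes lay below 0, beside 48.6% to 62.7% of all genes tested. Without ND replicate 3 alone, the shares were 71.4% and 48.6%, with medians of -0.05 and 0.01. They were 77.1% and 50.4% with median-ratio scaling, and 61.4% and 52.4% with sample weights. Genes measured in the same samples are not separate replicates, and the count of signs was not tested.

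The largest difference among genes above 0 in every sample was that of mRpL16, a core protein of the large subunit with a bacterial counterpart, encoded on the X chromosome at 1890256 to 1891482 (plus strand). Its level was 19.6, 20.9 and 20.5 FPKM in the ND samples and 15.9, 10.9 and 16.1 FPKM in the HFD samples. All HFD samples were below all ND samples, and HFD replicate 2 was the lowest. The ND mean was 20.3 ± 0.707 FPKM and the HFD mean 14.3 ± 2.95 FPKM (SD, n = 3 each). On the log2 scale the difference was -0.50 ± 0.16 (SE), its 95% interval ran from -0.89 to -0.11, and limma gave an unadjusted p of 0.0198 and an adjusted p of 0.612. The exact permutation test gave p = 0.1, the smallest that 3 samples against 3 allow. Without HFD replicate 2 the log2 difference was -0.33. mRpL16 overlaps exons of arm, which encodes the fly beta-catenin, on the opposite strand. Reads of the pair cannot be told apart without strand, and arm stood at 124 to 139 FPKM with a log2 difference of -0.03.

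mRpL1, counterpart of the bacterial protein that forms the mobile L1 stalk, lies on chromosome 3R at 8301440 to 8302770. It had 19.1, 16.9 and 17.2 FPKM on ND and 15.2, 13.8 and 15.5 FPKM on HFD, without overlap between the diets. By limma, its log2 difference of -0.24 ± 0.09 (SE) had an unadjusted p of 0.0298, which became 0.650 after adjustment. mRpL37, a mitochondrial protein of the large subunit without a bacterial counterpart, lies on chromosome 3R at 10782563 to 10784092. It had 16.5, 16.1 and 15.9 FPKM on ND and 15.2, 12.6 and 11.8 FPKM on HFD, again without overlap. Here limma gave a log2 difference of -0.28 ± 0.11 (SE), at an unadjusted p of 0.0414 and an adjusted p of 0.702. For all of mRpL16, mRpL1 and mRpL37, the difference exceeded the spread between samples in the unadjusted test alone.

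The diets did not overlap for 7 of the 70 genes. Lower on HFD were 6 of the 70 genes, near the background share of 8.07% of all genes tested. Higher on HFD was 1 of the 70 genes, under the background share of 4.54% of all genes tested. Besides mRpL16, mRpL1 and mRpL37, the lower genes were mRpL2, mRpL36 and mRpS30. mRpL2, counterpart of a bacterial protein close to the catalytic centre, had 20.3, 18.97 and 20.8 FPKM on ND and 17.6, 13.9 and 18.1 FPKM on HFD, and limma estimated -0.27 on the log2 scale at an adjusted p of 0.767. mRpL36, a very small protein in bacteria, had 12.6, 12.5 and 14.1 FPKM on ND and 11.7, 11.8 and 9.37 FPKM on HFD, which limma put at -0.24 on the log2 scale at an adjusted p of 0.797. mRpS30 had 27.2, 25.6 and 25.6 FPKM on ND and 25.4, 21.6 and 24.7 FPKM on HFD, or -0.13 on the log2 scale, at an adjusted p of 0.935 from limma. The counterpart of mRpS30 in mammals is placed in the large subunit, whatever its name. The gap between the diets was narrow in mRpS30, where ND replicate 3 and HFD replicate 1 nearly touched.

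The gene that stood higher on HFD was mRpL49, a mitochondrial protein of the large subunit, encoded on the X chromosome at 12907105 to 12907942. It had 16.5, 16.6 and 16.7 FPKM on ND and 18.7, 17.8 and 17.9 FPKM on HFD. Its samples lay closer together within the diets than those of any other of the 70 genes, with a within-diet SD of 0.03 on the log2 scale, followed by mRpL12 and mRpL28 with 0.05 each. Its log2 difference was 0.12 ± 0.06 (SE), and the p that limma gave after adjustment was 0.862. mRpL12, whose bacterial counterpart makes up the flexible stalk that recruits translation factors, had 28.5, 27.8 and 29.4 FPKM on ND and 26.3, 27.0 and 28.3 FPKM on HFD, where only HFD replicate 3 reached the ND range. The highest log2 difference of all 70 was 0.28, in mRpL55, a gene named here after its values were seen. It had 18.5, 25.6 and 27.6 FPKM on ND and 29.0, 32.2 and 25.8 FPKM on HFD, with overlapping diets and an adjusted p of 0.900 from limma.

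Flies carry 3 paralogues of the S18 protein, and mRpS18B had the lowest mean of them, 10.96 FPKM, against 17.3 FPKM for mRpS18A and 16.4 FPKM for mRpS18C. mRpS18A, whose mammalian counterpart is placed in the large subunit, had 14.5, 21.3 and 17.6 FPKM on ND and 20.05, 15.1 and 15.5 FPKM on HFD. mRpS18B had 14.7, 11.8 and 9.64 FPKM on ND and 9.63, 9.40 and 10.6 FPKM on HFD. mRpS18C had 17.8, 22.2 and 14.7 FPKM on ND and 15.0, 13.9 and 14.6 FPKM on HFD. On HFD, all values of mRpS18B were below those of the other paralogues. The log2 differences of the paralogues were -0.07, -0.24 and -0.29 in this order, with SEs of 0.17, 0.15 and 0.15, and the diets overlapped in each. mRpS18C and mRpS29, a GTP-binding protein known in mammals as DAP3, were among the 8 genes with the smallest unadjusted p. mRpS29 had 16.4, 17.3 and 16.7 FPKM on ND and 16.5, 12.6 and 14.2 FPKM on HFD, and HFD replicate 1 fell within the ND range.

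Read by sample, the genes of the mitochondrial ribosome stood lower in HFD replicate 2 than elsewhere. Their summed level was 1326, 1364 and 1396 FPKM in the ND samples and 1361, 1183 and 1281 FPKM in the HFD samples. HFD replicate 1 was within the ND range and the other HFD samples were below it. The ND mean was 1362 ± 35.0 FPKM and the HFD mean 1275 ± 89.1 FPKM (SD, n = 3 each), a ratio of 0.936, and without HFD replicate 2 the ratio was 0.970. Over the 67 genes above 0 in every sample, the ratio was 0.946, and 0.968 without HFD replicate 2. HFD replicate 2 had the lowest value of the 6 samples in 35 of the 70 genes, or 50%, and in 18.97% of all genes tested. The share was 45.7% in the large subunit, 58.3% in the small subunit and 76.3% in the cytosolic ribosomal protein genes.

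The median deviation of the 70 genes from their own 6-sample mean was -0.15 on the log2 scale in HFD replicate 2 and between -0.03 and 0.07 in the other samples. Other genes with a mean of 5 to 60 FPKM had a median deviation of 0.01 in HFD replicate 2. In ND replicate 3, the sample with almost no midgut digestion mRNA, the median deviation was 0.07 for the 70 genes and 0.10 for the other genes. HFD replicate 2 was also the sample with the lowest estimated depth, 5.33 M fragments, and had the second lowest summed level of the 28 midgut digestion genes, 7857 FPKM. The part of these in the lower levels was not tested.

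**Figure D4:**
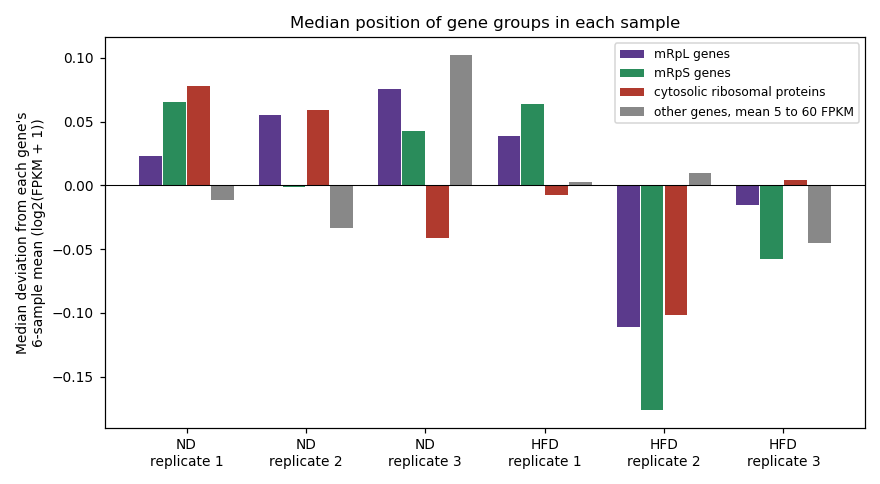
Median deviation from each gene's 6-sample mean on log2(FPKM + 1) (vertical axis) in each sample (horizontal axis), for mRpL genes, mRpS genes, cytosolic ribosomal protein genes and the other genes with a mean of 5 to 60 FPKM (bars). In HFD replicate 2 the bars of all ribosomal groups are below -0.10 and that of the other genes is at 0.01.

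The genes share features that the name rule did not use. Their longest transcripts are short, with a median of 778.5 nt against 1688 nt for the 11370 other protein-coding genes in the files, and 53 of the 70 have a single annotated transcript. The start of a neighbour on the opposite strand, facing away, lies within 500 bp for 50 of the 70 genes, or 71.4%, against 24.3% of the other protein-coding genes. Within 100 bp the shares are 22.9% and 5.07%. mRpS18C thus starts 45 bp from CG15535, which had mean levels of 9.94 FPKM on ND and 7.44 FPKM on HFD, and mRpL33 starts 395 bp from norpA, the phospholipase C of phototransduction, which had 154 and 144 FPKM. The levels on the sides of such a pair could thus differ widely, and in mRpL33 the neighbour stood higher.

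Exons of another gene overlap 41 of the 70 genes, or 58.6%, against 32.2% of the other protein-coding genes. In 40 genes the overlapping gene is antisense and in 3 genes it lies on the same strand. The values of these genes are uncertain to the extent that reads of the overlap were counted for either gene. Among the named genes, mRpL1 overlaps nac, mRpS9 overlaps ArgRS-m and mRpL30 overlaps Torsin, all antisense, and these overlapping genes were not analysed here. mRpL2 overlaps Ufd1, which stood at 16.9 to 27.5 FPKM and, like mRpL2, was lowest in HFD replicate 2. The same held for mRpL28 and the overlapping Gmd. For mRpL24, mRpL16, mRpS18C, mRpS29, mRpL34 and mRpL11, the overlapping gene was lowest in another sample than the named gene. The overlapping genes analysed all had negative log2 differences. These were -0.23 for Ufd1, beside -0.27 for mRpL2, and -0.26 for CG15536, beside -0.29 for mRpS18C. They were -0.14 for Gmd, -0.21 for synr, which overlaps mRpL24, and -0.03 for arm. The genes overlapping mRpS29, mRpL34 and mRpL11 had -0.10, -0.27 and -0.05. The part of shared reads in these differences was not tested. The 70 genes are spread over the large chromosome arms, with 12 on 2L, 12 on 2R, 15 on 3L, 20 on 3R and 11 on X.

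The genes analysed that have roles around the mitochondrial ribosome did not pass the test either. A pair of small-subunit proteins have names that the rule does not take. tko, the S12 protein that helps to secure decoding, had 23.9, 21.03 and 21.4 FPKM on ND and 24.8, 19.2 and 18.3 FPKM on HFD, or -0.10 on the log2 scale, at an adjusted p of 0.997 from limma. bonsai, the S15 protein, had 21.1, 20.2 and 19.1 FPKM on ND and 21.3, 18.7 and 20.6 FPKM on HFD, with a log2 difference of 0.01. Both lay within the range of the mRpS genes, with overlapping diets.

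Of the factors for assembly of the mitochondrial ribosome and for mitochondrial RNA, 0 of 6 tested genes had an unadjusted p under 0.05, with a median log2 difference of -0.11. The same count was 0 of 6 for mitochondrial DNA transcription and replication (median -0.16), 0 of 5 for regulators of mitochondrial biogenesis (median 0.05), 0 of 7 for protein import into mitochondria (median -0.10) and 0 of 6 for respiratory chain subunits (median -0.04). These lists are partial. Among others, srl and Myc of the regulators and Tim23 of import were not analysed here, and the name rule for respiratory chain subunits took in only 7 genes. The median of -0.16 takes in PolG2, which was listed at 3.28 FPKM in ND replicate 2 and at 0 in every other sample. TFAM, which packages the mitochondrial genome and helps to start its transcription, had 24.2, 20.7 and 22.1 FPKM on ND and 18.2, 17.4 and 20.98 FPKM on HFD. Its diets overlapped in HFD replicate 3 alone, and by limma the log2 difference was -0.23, at an adjusted p of 0.776. The diets did not overlap for 3 of the 7 import genes, all lower on HFD, beside 8.07% of all genes tested. Among them was Tom40, the channel of the outer membrane, with 35.7, 36.6 and 36.0 FPKM on ND and 34.5, 31.0 and 33.1 FPKM on HFD. Its log2 difference was -0.13 with an adjusted p of 0.852 from limma. In the fat body list, 4 of 8 tested genes were higher and 1 was lower on HFD before adjustment (p under 0.05), beside 3.11% and 3.6% of all genes tested, and 0 after adjustment by limma. The part of fat body mRNA in the values above was not tested.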

How the data were processed

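Poly(A) RNA from heads was sequenced for 3 ND and 3 HFD samples, grouped and numbered by their labels. The authors kept uniquely mapped reads and deposited FPKM per gene and sample, which the deposited description calls RPKM. The submitters' processing notes name HISAT. The genome build and annotation are not given in the sources used here. Each file has 12138 rows. Transcript lengths, positions and overlaps come from the Ensembl BDGP6.54 annotation, in which 11794 identifiers were found.

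From the deposited FPKM, log2(FPKM + 1) was taken, and the diets were compared with limma (version 3.58.1, R 4.3.3, moderated variance with an intensity trend). Genes had to average 0.5 FPKM or more over the samples, which 8362 genes and all 70 described here did. Adjustment of p followed Benjamini and Hochberg. The log2 scale with a pseudocount of 1 understates changes of low genes. Each gene was also tested by exact permutation (two-sided, 20 assignments). Python 3.11.15, pandas 2.3.3, numpy 2.4.6 and matplotlib 3.10.9 were used, and the steps were tested on simulated data. Depth is an estimate, since only 66.4% to 73.1% of low values were within 0.15 of a whole number of fragments, and no count test was made.

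Named genes were the 8 smallest unadjusted p, the 5 highest and the 5 lowest means, genes whose diets did not overlap, the 3 smallest and the 3 largest within-diet SDs, the S18 paralogues and genes listed at 0. The genes and lists were chosen with earlier results of these data known. Lists of mitochondrial translation factors and of products of the mitochondrial genome, and promoter and protein sequences, were not analysed here. Alternatives were other pseudocounts, filters and scalings, limma without trend, an unmoderated variance, sample weights, summed rows, the replicate number as a block and samples left out.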

Additional observations from a re-analysis of the deposited data

How the results depend on the processing

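The count of 0 genes with an adjusted p under 0.05 was obtained under every alternative run. Genes lower on HFD at an unadjusted p under 0.05 numbered 3 in the report, 1 with median-ratio scaling and 8 with sample weights. Genes higher on HFD at this p numbered 0 in the report, 3 with sample weights and 1 each with an unmoderated variance, without ND replicate 3 and HFD replicate 2, and with values listed at 0 as missing. Genes whose diets do not overlap, higher on HFD, numbered 1 in the report, 2 with median-ratio scaling, with quantile normalization and with values listed at 0 as missing, and 0 with FPKM rescaled to an equal sum. Those lower on HFD numbered 6 in the report, 3 with median-ratio scaling, 7 with values listed at 0 as missing and 8 with FPKM rescaled to an equal sum. With samples left out singly, 1 to 5 genes were lower and 0 to 1 higher at an unadjusted p under 0.05. The count lower was 1 without ND replicate 1, ND replicate 2 or HFD replicate 2, and 5 without ND replicate 3. Without overlap were 7 to 17 lower and 1 to 4 higher, and 19 lower and 9 higher without ND replicate 3 and HFD replicate 2 together, where fewer samples per diet make non-overlap easier. The median log2 difference with 1 sample left out ranged from -0.12 to -0.031 over the 70 genes, from -0.096 to -0.029 in the large subunit and from -0.15 to -0.036 in the small subunit. Without ND replicate 3 and HFD replicate 2 together it was -0.0065 over the 70 genes and -0.0026 over the large subunit. The causes of the other shifts were not tested.

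Signs turned for mRpL24 with median-ratio scaling (0.0049), for mRpS9 (0.024), mRpS18A (0.12), mRpL54 (0.088) and mRpL27 (1.95) with sample weights, and for mRpL34 with values listed at 0 as missing (0.29). With 1 sample left out, or with ND replicate 3 and HFD replicate 2 left out together, the log2 difference ranged from -0.14 to 0.064 for mRpS9, from -0.090 to 0.053 for mRpL24, from -2.53 to 0.011 for mRpL33, from -0.20 to 0.064 for mRpS18A, from -0.28 to 0.016 for mRpL21, from -1.73 to 0.29 for mRpL34, from -0.30 to 0.22 for mRpL54, from -1.89 to 1.40 for mRpL27 and from -0.039 to 0.14 for mRpL11. By limma, 0 of these genes had an adjusted p under 0.05 in any alternative.

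The labels do not say whether equal replicate numbers pair the samples. Correlations of same-numbered deviations from the diet means were 0.31, -0.51 and -0.36, and no sample correlated best with its own number. Such deviations sum to 0 within a diet, and the highest correlation, 0.55, joined ND replicate 3 and HFD replicate 2, which stood apart. These correlations therefore cannot decide whether the samples are paired. With the replicate block, 1 of the 70 genes had an unadjusted p under 0.05, lower on HFD, and 0 had an adjusted p under 0.05.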
